A study of Mus musculus with 64 samples.

Results

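The 8 Ugt2 genes described here, Ugt2a3, Ugt2b1, Ugt2b5, Ugt2b34, Ugt2b35, Ugt2b36, Ugt2b37 and Ugt2b38, were chosen by symbol and were all listed among the 23338 genes of the read count files. RNA-seq had been made from 64 mouse samples of the C57BL/6 strain (C57BL/6 J in the study's methods) that differed in stage and sex. They were 12 eight-cell embryos (6 male, 6 female), 4 embryonic stem (ES) cell lines (2 male, 2 female), 24 late-gestation fetal livers (12 male, 12 female) and 24 adult livers (12 male, 12 female). No sample carried a transgene or received a treatment according to the labels. The ES lines had each been derived from a single embryo and grown in a medium with inhibitors of 2 kinases and LIF, and each embryo library pooled all cells of 1 embryo.

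UDP-glucuronosyltransferases are membrane enzymes of the endoplasmic reticulum that attach glucuronic acid to lipophilic molecules, which can then leave the body in bile or urine. The Ugt2 family handles steroid hormones, bile acids, fatty acids and many drugs, and the hepatocyte is one of its main sites. Glucuronic acid reaches the enzymes as UDP-glucuronate, made in the cytosol by Ugdh and carried into the endoplasmic reticulum by transporters such as Slc35d1.

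The 8 genes lay within 534.4 kb of chromosome 5, from 86889767 to 87424203 in GRCm38, in the GENCODE annotation. Of 26 annotated genes in that stretch, 15 were pseudogenes. In order along the chromosome the members were Ugt2b34, Ugt2b1, Ugt2b35, Ugt2b36, Ugt2b5, Ugt2b37, Ugt2a3 and Ugt2b38. Ugt2b35 was the member on the plus strand and the other 7 were on the minus strand. Each principal transcript had 6 exons, and coding lengths ran from 1587 to 1602 bases.

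The genes are close copies of each other, which bears on how reads could be assigned. The first 60 coding bases of each, from GENCODE transcripts on GRCm38, are shown because they separate the family into a near-identical group and more distant members. Capitals mark bases that differ from the commonest base of the 8 at that position.
Ugt2b5: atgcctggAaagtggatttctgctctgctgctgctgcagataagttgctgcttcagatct
Ugt2b38: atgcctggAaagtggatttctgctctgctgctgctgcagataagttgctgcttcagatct
Ugt2b37: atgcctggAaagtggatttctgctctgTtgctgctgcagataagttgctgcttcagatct
Ugt2b36: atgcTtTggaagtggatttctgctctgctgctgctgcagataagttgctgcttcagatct
Ugt2b35: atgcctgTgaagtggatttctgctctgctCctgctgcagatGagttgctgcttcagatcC
Ugt2b1: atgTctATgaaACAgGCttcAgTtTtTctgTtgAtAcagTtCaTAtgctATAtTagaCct
Ugt2b34: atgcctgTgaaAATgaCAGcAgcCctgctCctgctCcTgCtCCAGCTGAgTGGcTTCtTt
Ugt2a3: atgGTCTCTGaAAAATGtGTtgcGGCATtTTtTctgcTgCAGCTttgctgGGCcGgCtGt

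Over the whole coding sequence Ugt2b5 was 97.1% identical to Ugt2b38 and 94.7% to Ugt2b37, and Ugt2b37 was 94.1% identical to Ugt2b38. Ugt2b1 and Ugt2b34 were 76.3% identical, and Ugt2a3 was at most 71.0% identical to any other member. Of all 50-base stretches of the transcript, 58.3% for Ugt2b5, 62.6% for Ugt2b38 and 81.7% for Ugt2b37 occurred in no transcript of another gene. The share was 95.4% for Ugt2a3, 97.9% for Ugt2b34, 99.3% for Ugt2b35, 99.7% for Ugt2b36 and 100% for Ugt2b1. Reads with more than one alignment were not counted, so values of Ugt2b5, Ugt2b37 and Ugt2b38 rest on the part of each transcript that is its own, and some reads among these 3 genes may be assigned to the wrong copy.

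Ugt2b37 and Ugt2b38 are shown upstream as well, because the deposited counts placed them on opposite sides of the sex comparison in adult liver. The windows are the 250 bases before the RefSeq start site on the minus strand of GRCm38.p6, chr5:87254789-87255038 for Ugt2b37 and chr5:87424204-87424453 for Ugt2b38. Capitals mark the 14 positions that differ over the 236 bases in which the windows overlap once shifted by 14 bases.
Ugt2b37 upstream: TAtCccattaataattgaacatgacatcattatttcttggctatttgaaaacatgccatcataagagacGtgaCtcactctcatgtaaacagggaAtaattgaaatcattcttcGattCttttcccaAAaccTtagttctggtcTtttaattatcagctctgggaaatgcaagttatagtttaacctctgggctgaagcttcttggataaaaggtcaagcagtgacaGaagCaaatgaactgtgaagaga
Ugt2b38 upstream: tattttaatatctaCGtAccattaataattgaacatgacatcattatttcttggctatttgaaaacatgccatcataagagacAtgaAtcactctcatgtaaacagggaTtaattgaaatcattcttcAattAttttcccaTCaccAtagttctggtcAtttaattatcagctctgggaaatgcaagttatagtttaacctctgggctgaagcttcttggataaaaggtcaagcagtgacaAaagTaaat

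The overlap was 94.1% identical. The letters TTCNNNGAA, a pattern that STAT5 binds, were searched on both strands in the upstream windows of all 8 members and occurred in 0 of them, against 7.02% of 32851 RefSeq promoters cut to the same length. GTTAAT, part of the pattern that HNF1 binds, occurred in 1 member, Ugt2a3, against 6.43% of promoters. These are matches of letters in a short window and say nothing of binding.

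Counts on genes ran from 4659656 to 10386931 per library in embryos, ES lines and fetal livers, apart from the 24 adult livers, which held 1567583 to 4757610. A level of 3 reads corresponded to 0.353 to 0.583 CPM (reads of the gene scaled to library size) in fetal livers and 0.631 to 1.91 CPM in adult livers. All 8 hepatocyte markers were read in every liver group, with summed normalised levels of 39180 to 52620 CPM in fetal and 69230 to 99570 CPM in adult livers. Female fetal liver 14 stood apart: its reads of the intestinal genes Vil1 and Fabp2 came to 205 and 540 CPM, against at most 5.46 and 5.26 CPM in the other 11 female fetal livers. In 8 adult livers (4 male, 4 female) a smaller share of mapped reads lay on genes in the study's mapping summary. The share of counted reads outside genes ran from 39.9% to 49.0% among fetal males and from 34.1% to 38.1% among fetal females, so that in fetal liver this measure of RNA or library composition and sex cannot be told apart. Xist and Y-linked reads separated the sexes in all 24 fetal and all 24 adult livers.

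Before the liver forms, no member was read. All 8 genes had 0 reads in all 12 embryos, over 73213414 counted reads, and 0 reads in all 4 ES lines, over 40536297. A count of 0 allows up to 0.388 to 0.644 CPM in a single embryo and 0.289 to 0.304 CPM in an ES line. The rest of the route was partly present: Ugdh was read in 12 of 12 embryos at a median of 20.5 CPM and in 4 of 4 ES lines at 73.8 CPM. Embryo libraries were amplified from little RNA and ES libraries were not, so these levels were not tested against each other or against liver.

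In liver the family was read from the fetal stage, but only in part. The normalised level below is CPM after trimmed-mean (TMM) scaling over the 48 livers. Ugt2b34 had the highest count of the members in fetal liver, at a median of 357 CPM in females (332 to 379) and 311 CPM in males (280 to 340). Ugt2b5, Ugt2b35 and Ugt2b36 were lower, between 44.0 and 88.6 CPM in every fetal liver. Ugt2b1 reached 2.98 to 9.15 CPM, and Ugt2a3 0 to 2.18 CPM, from at most 19 reads a library. Ugt2b37 had 9 reads and Ugt2b38 4 reads in all 24 fetal livers together.

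**Figure D1:**
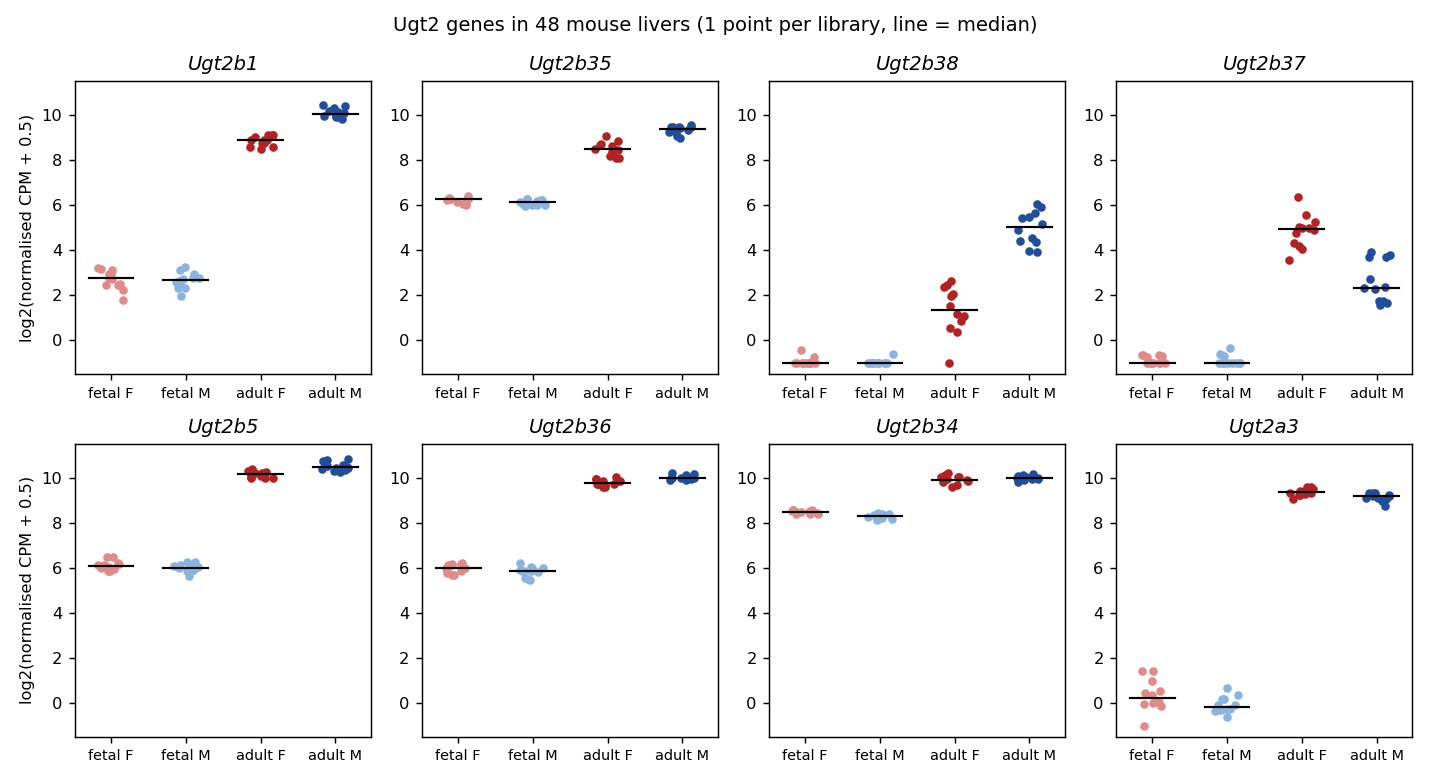
Level of each Ugt2 gene in 48 livers, as log2(normalised CPM + 0.5) on the vertical axis, with 1 point per library, a line at the group's median, and groups of 12 livers by stage and sex (F female, M male). In adult liver the Ugt2b1 points of the 12 males lie above those of all 12 females, those of Ugt2b38 likewise, and those of Ugt2b37 lie mostly lower in males.

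Levels of different genes were compared per kb of the principal GENCODE transcript, a length that may differ from the annotation used for counting. The full length was used, including stretches shared between copies, where reads with more than one alignment were not counted. Levels per kb of Ugt2b5, Ugt2b37 and Ugt2b38 may therefore be too low, and their rank and share beside other members are uncertain to that extent. In fetal liver of both sexes Ugt2b34 led at 117 ± 5.5 CPM per kb in females and 102 ± 6.32 in males (SD, n = 12), which was on average 55.2% and 53.8% of the family's summed level per kb. Ugt2b5 and Ugt2b36 followed and on this scale did not differ beyond their spread. Ugt2b5 was the higher in 8 of 12 female and 9 of 12 male livers. Of their 50-base stretches 58.3% and 99.7% were their own, so a gap between them could be hidden. In adult liver Ugt2b5 led, at 613 ± 58.5 CPM per kb in females and 787 ± 105 in males, and Ugt2b36 followed it, below Ugt2b5 and above the member ranked next in all 24 livers.

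Below these the order in adult liver depended on sex. In females Ugt2b34 (319 ± 38.3 CPM per kb) and Ugt2a3 (313 ± 35.9) came next and did not differ beyond their spread, Ugt2b34 being higher in 6 of 12 livers. Ugt2b1 followed at 180 ± 26.7. In males Ugt2b1 came directly after Ugt2b36, at 427 ± 63.6 CPM per kb, above Ugt2b34 in 12 of 12 livers. Ugt2b37 and Ugt2b38 were last in both sexes, Ugt2b37 above Ugt2b38 in 12 of 12 females and Ugt2b38 above Ugt2b37 in 12 of 12 males.

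**Figure D2:**
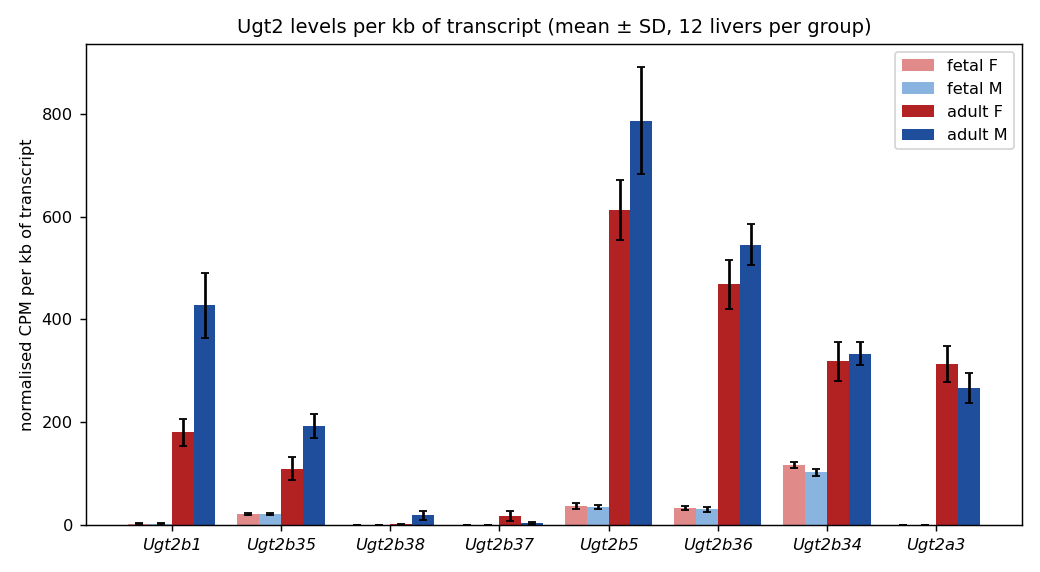
Mean level of each Ugt2 gene as normalised CPM per kb of transcript (vertical axis from 0), with bars for the 4 liver groups and error bars of 1 SD over 12 livers. Ugt2b34 is the tallest bar in fetal liver, at 117 and 102 CPM per kb, and Ugt2b5 in adult liver, at 613 and 787.

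All 8 members were higher in adult than in fetal liver, in edgeR's quasi-likelihood test with Benjamini-Hochberg adjustment, called at an adjusted p under 0.1 and an absolute log2 value over 0.5. Over all genes tested in that comparison 67.1% were called, 31.7% higher and 35.4% lower in adult. The median log2 adult/fetal of the members was 5.57, against -0.05 over all genes tested. In whole tissue, a change in the number of cells of a type and a change in RNA per cell cannot be told apart, and the summed hepatocyte marker level was also higher in adult liver, as given above. The erythroid markers, 6 of 8 listed in the files, moved the other way. Their summed normalised levels were 3533 to 5472 CPM in fetal and 18.1 to 238 CPM in adult livers. Hba-a1 was at 0 in every adult and every female fetal liver, in counts that leave out reads aligned at several places. The part of the erythroid shift in the Ugt2 values was not tested. With library sizes taken from those hepatocyte markers, the median over all genes tested was -0.95 and the members ran from 0.66 to 8.86, with all 8 called. In that fit 10254 of 13026 genes tested were called, 1745 higher and 8509 lower in adult.

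Ugt2a3, an enzyme of the 2A branch known to conjugate bile acids, had the largest fitted value, a log2 adult/fetal of 9.76 (SE 0.115, adjusted p = 3.73e-53). It went from 0 to 2.18 CPM in fetal to 432 to 774 CPM in adult livers. Ugt2b1, an enzyme that conjugates steroids and phenols, stood at 6.86 (SE 0.0935, adjusted p = 3.23e-50). Ugt2b5 was at 4.28, Ugt2b36 at 3.997 and Ugt2b35 at 2.77. Ugt2b34, the leading member before birth, had the smallest fitted value, at 1.58 (SE 0.0359, adjusted p = 1.88e-42), and was 0.66 when scaled to hepatocyte markers. In each of these 6 genes, and in Ugt2b37, every adult liver lay above every fetal liver, while in Ugt2b38 the ranges overlapped. How many of all genes tested were separated in this way was not counted.

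For Ugt2b37 (fitted log2 7.71) and Ugt2b38 (7.79) the fetal side was a handful of reads, so pooled counts are given with exact 95% intervals that cover counting error only. Relative to library size and without TMM scaling, Ugt2b37 was 266 times higher in adult liver (interval 140 to 584), from 980 reads against 9. By sex it was 97.9 times higher in males (37.6 to 363) and 465 times in females (198 to 1435). Ugt2b38 was 634 times higher (interval 247 to 2330), from 1036 reads against 4. By sex it was 2008 times higher in males (interval 360 to 79380), from 974 reads against 1, and 60.8 times in females (19.9 to 303), from 62 reads against 3. On this pooled scale Ugt2a3 was 575 times higher (488 to 683), so the interval of Ugt2b38 spans it. Female adult livers carried few Ugt2b38 reads, from 0 to 12 per library.

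The comparison of males with females asked whether the family differs by sex at each stage. In adult liver 4 of 8 members were called, 3 higher in males (Ugt2b1, Ugt2b35, Ugt2b38) and 1 higher in females (Ugt2b37). Over all genes tested 9.49% were called, 3.01% higher in males and 6.48% higher in females. The median log2 male/female was 0.27 over the members and -0.00094 over all genes tested. Alignments at more than one place, per 100 counted reads, numbered 72.9 to 157 in male and 48.6 to 76.0 in female adult livers, which bears most on the near-identical Ugt2b5, Ugt2b37 and Ugt2b38. Of the erythroid markers, Alas2, the first enzyme of haem synthesis, was at 183 to 233 CPM in male and 13.1 to 48.7 CPM in female adult livers, while the other 5 listed summed to between 1.67 and 8.43 CPM in any adult liver. The part of either measure in the Ugt2 sex differences was not tested.

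Ugt2b38 showed the widest difference. Its level was 14.4 to 64.8 CPM in males (median 32.3) and 0 to 5.78 CPM in females (median 2.05), and no female reached the lowest male. The fitted log2 male/female was 3.65 (SE 0.354, adjusted p = 1.64e-08). The 4 male livers with a low share of reads on genes held 42.8 to 64.8 CPM and the other 8 males 14.4 to 43.3 CPM. The same 4 males had the most alignments at more than one place, 122 to 157 per 100 counted reads, against at most 116 in the other 8. The part of either measure in these levels was not tested. Without the 8 livers of low share the value was 3.26 and among those 8 alone 4.28.

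Ugt2b37 ran the other way. Females held 11.2 to 80.4 CPM (median 30.2) and males 2.46 to 14.5 CPM (median 4.50), with 11 of 12 females above every male. The fitted log2 male/female was -2.35 (SE 0.345, adjusted p = 1.45e-05). It was -2.94 without the 8 livers of low share and -0.95 (adjusted p = 0.0779) among those 8 alone, where the males held 4.58 to 14.5 CPM. The ratio of Ugt2b38 to Ugt2b37 reads within a library was 2.34 to 12.5 in males and 0 to 0.261 in females, so the sexes did not overlap in it.

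Ugt2b1 combined a high level with a clear difference. Males held 888 to 1386 CPM (median 1060) and females 353 to 548 CPM (median 472), with no overlap. The fitted log2 male/female was 1.22 (SE 0.0802, adjusted p = 8.08e-14). Because Ugt2b1 shared no 50-base stretch with another gene's transcript, assignment among copies bears on it less than on Ugt2b37 or Ugt2b38. Ugt2b35, whose 50-base stretches were also nearly all its own, was at 501 to 740 CPM in males (median 663) and 272 to 526 CPM in females (median 354), with 11 of 12 males above every female. Its fitted log2 male/female was 0.79 (SE 0.0921, adjusted p = 7.99e-08).

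The other members differed by less than the fold threshold. Ugt2b5 had a log2 male/female of 0.34 (adjusted p = 0.000185) and Ugt2b36 of 0.20 (adjusted p = 0.00699). Ugt2a3 had -0.25 (adjusted p = 0.00416), with 521 to 774 CPM in females and 432 to 638 CPM in males. Ugt2b34 gave 0.04 (SE 0.0588, adjusted p = 0.64), with medians of 960 CPM in females and 1012 CPM in males.

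**Figure D3:**
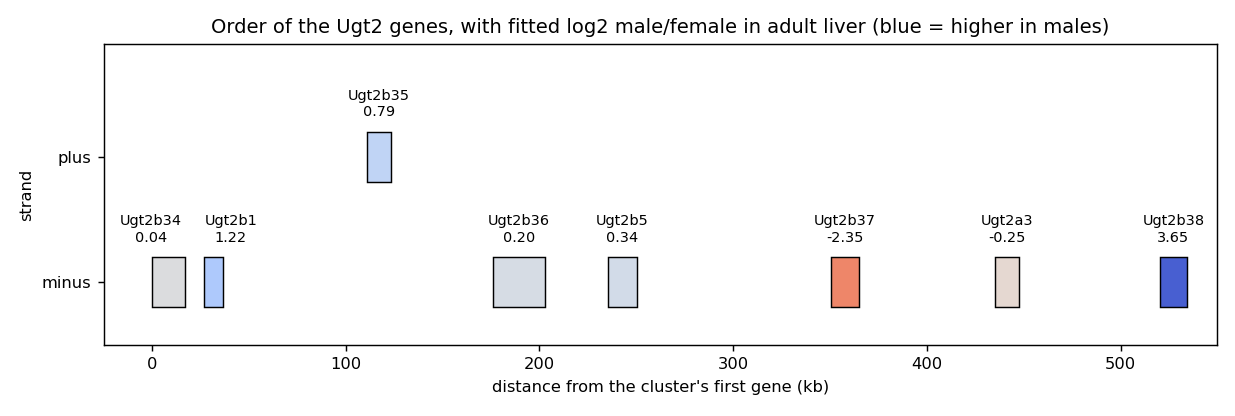
Ugt2 genes by strand (vertical axis) and distance in kb from the first gene of the cluster (horizontal axis), coloured by the fitted log2 male/female in adult liver printed above each gene. Ugt2b37 and Ugt2b38, at -2.35 and 3.65, lie on either side of Ugt2a3, at -0.25.

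In fetal liver no member passed the thresholds by sex. Ugt2a3, Ugt2b37 and Ugt2b38 fell under the filter on low counts and were not tested, and 0 of the other 5 were called by edgeR, with 1 at an unadjusted p under 0.05, and 0 by DESeq2. Over all genes tested 4.64% were called, 3.81% higher in males and 0.828% higher in females. In the edgeR fit 5235 of 12930 genes had an unadjusted p under 0.05. The fitted log2 male/female of the 5 ran from -0.16 to -0.01. Ugt2b34 had the value farthest from 0, at -0.16 (adjusted p = 0.000834), below the fold threshold, with 9 of 12 females above every male. With the share of reads outside genes as a covariate its value was -0.14 with a wider SE (0.0746 against 0.0353, adjusted p = 0.92), and sex and that share cannot be told apart here. Without female fetal liver 14 again 0 of 5 were called. Ugt2a3, with mean levels of 0.474 CPM in males and 0.901 CPM in females, gave a log2 male/female of -0.84 in edgeR without the filter (adjusted p = 0.128) and -0.87 in DESeq2 (adjusted p = 0.113).

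**Figure D4:**
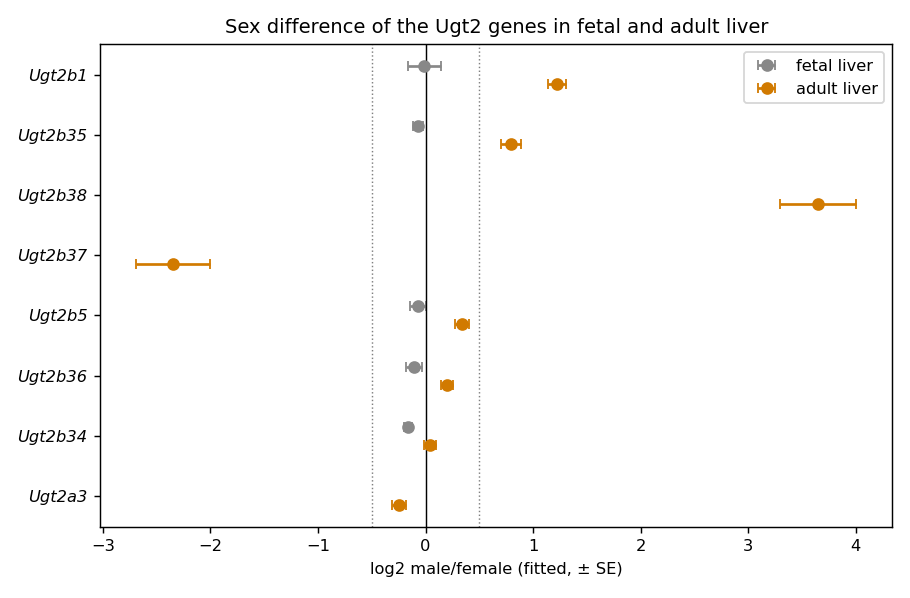
Fitted log2 male/female of each Ugt2 gene (horizontal axis, with bars of 1 SE) in fetal and adult liver, with dotted lines at the fold threshold of 0.5. Fetal values of the 5 tested genes lie between -0.16 and -0.01, adult values between -2.35 and 3.65; 3 genes have no fetal value.

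Whether the sex difference itself differed between the stages was tested as an interaction over the 48 livers, called at an adjusted p under 0.1 with no fold threshold. Of the 8 members 6 were called, all with a more positive log2 male/female in adult liver. Over all genes tested 33.7% were called, 18.7% more positive and 14.9% more negative in adult. The change was 1.28 for Ugt2b1 (adjusted p = 1.04e-07), 0.91 for Ugt2b35 (adjusted p = 1.94e-09), 0.45 for Ugt2b5, 0.35 for Ugt2b36 and 0.25 for Ugt2b34. Ugt2b38 gave 4.33 (adjusted p = 0.0684), a value that rests on the 4 fetal reads and was as large but not called without female fetal liver 14 (4.38, adjusted p = 0.102). Ugt2b37 gave -2.17 (adjusted p = 0.386) and Ugt2a3 0.60 (adjusted p = 0.171). With the share of reads outside genes as a covariate, calls over all genes tested fell from 4384 to 989 of 13026. In that fit 2 members, Ugt2b1 and Ugt2b35, were called. The values of the other 4 were 0.43 for Ugt2b5, 0.29 for Ugt2b36, 0.21 for Ugt2b34 and 5.20 for Ugt2b38, with wider SEs.

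The spread among livers of the same sex also set the members apart. In adult livers the coefficient of variation was 6.78% to 20.9% for the 6 abundant members, and 49.4% to 71.2% for Ugt2b37 and Ugt2b38, of which counting error alone would give 11.1% to 44.0%. After centring log2 levels on each sex's mean, over the 24 adult livers, the closest pairs were Ugt2b35 with Ugt2b36 (r = 0.771), Ugt2b5 with Ugt2b36 (r = 0.75) and Ugt2b34 with Ugt2b35 (r = 0.717). Ugt2b37 and Ugt2b38 had r = 0.562 over both sexes, 0.724 in males and 0.465 in females, although their means lay on opposite sides between the sexes. The 2 transcripts share 212 50-base stretches, and with the more abundant Ugt2b5 Ugt2b38 shares 629 and Ugt2b37 281. The 4 male livers with a low share of reads on genes had higher means than the other 8. These were 54.1 against 25.1 CPM for Ugt2b38 and 11.2 against 4.77 CPM for Ugt2b37. In females they were 2.60 in both sets for Ugt2b38 and 21.8 against 36.6 CPM for Ugt2b37. The part of wrongly assigned reads and of that share in this spread and correlation was not tested. These livers share the library preparation and its depth, so the correlations are descriptions.

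Over the 48 livers, where stage sets most of the variation, the genes most like each member in Pearson's r of log2 level were as follows. Ugt2a3 was most like Cyp4f14 and Cyp2c54 (r = 0.997 for both), Ugt2b1 like Sdr9c7 (0.996) and Cyp4v3 (0.995), and Ugt2b5 like Gm4788 and Mgst1 (0.997 for both). Ugt2b34 was most like Chuk (0.994) and Sord (0.991), Ugt2b35 like Scp2 and Fam176a (0.990 for both), and Ugt2b36 like Pgrmc1 (0.997) and Glyat (0.997). Ugt2b37 was most like Hacl1 (0.961) and BC089597 (0.960), and Ugt2b38 like the complement genes C8a (0.978) and C6 (0.977).

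The rest of the glucuronidation route was followed in 19 further genes. In adult against fetal liver 13 of 16 tested were higher, 1 was lower and 2 were not called, against 31.7% higher and 35.4% lower over all genes, and the median log2 value was 2.22. Ugt1a1, the enzyme that conjugates bilirubin, stood at 7.17, Ugt3a2 at 6.44, Ugt1a9 at 6.02 and Ugt3a1 at 6.02. Female fetal liver 14, set apart above by its intestinal genes, held 131 of the 182 Ugt1a9 reads in female fetal livers. It also held 80 of the 308 Ugt1a1 reads there. The fetal level of Ugt1a9 in females therefore rests largely on that liver. Ugt1a9 and Ugt1a1 values from the fit without that liver are not reported here, so its part in them is not given. Ugdh was 2.16 and Slc35d1 1.78, and Ugt8a, which makes galactosylceramide, was lower, at -2.30. Ugt2a1 and Ugt2a2, next to Ugt2b38 on the chromosome and known from the olfactory epithelium, had 0 counted reads in all 48 livers. Reads that overlapped several genes were set apart as ambiguous and counted for none of them.

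By sex in adult liver, 3 of 14 tested genes of the route were higher in males, 3 in females, and 8 were not called, against 3.01% and 6.48% of all genes. Ugt1a5 (log2 male/female -1.97), Ugt1a9 (-1.64) and Ugt1a1 (-0.75, adjusted p = 4.43e-12) were the female-biased genes. Slc35d1 (0.72, adjusted p = 0.00987), Ugt1a6b (0.62) and Ugdh (0.56, adjusted p = 0.000148) were the male-biased ones. Ugdh held 213 to 355 CPM in males and 112 to 235 CPM in females. The Ugt1a genes share their last exons, so their reads are assigned mainly by the first exon. In fetal liver 1 of 15 tested genes was called, Slc35d1, at 0.85 (adjusted p = 0.000572), and Ugdh gave -0.02. That share is near the 4.64% called over all genes. By the interaction 5 of 16 were called, a share no higher than the 33.7% over all genes, among them Ugt1a5 at -2.39, Ugdh at 0.62, Ugt1a6b at 0.59 and Ugt1a6a at 0.48, and Slc35d1 gave -0.08 (adjusted p = 0.868).

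Of 12 regulators known to act on liver Ugt genes, 10 were higher and 1 lower in adult than in fetal liver, against 31.7% and 35.4% of all genes tested. By sex in adult liver 3 of 12 were called, against 9.49% of all genes tested. Cux2, a repressor that is female-specific in adult liver, was there at 20.01 to 68.5 CPM in females and 0 to 0.766 CPM in males. Its fitted log2 male/female was -6.07 (adjusted p = 3.99e-18). In fetal liver both sexes carried Cux2, at 20.9 to 32.4 CPM in females and 25.9 to 49.8 CPM in males. By sex in adult liver Bcl6, a repressor that competes with STAT5, was 1.79 (adjusted p = 0.0035). Nr1i3, the xenobiotic receptor CAR, was -0.68 (adjusted p = 0.000677). In fetal liver 0 of 12 were called by edgeR at these thresholds. Of the 12, 4 had an unadjusted p under 0.05, against 5235 of 12930 genes tested, so their share was no higher.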

How the data were processed

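The authors aligned reads to mm10 with TopHat 2.0.4, Bowtie2 2.1.0 and SAMtools 0.1.18, removed duplicates with Picard and deposited raw read counts per gene from HTSeq. Livers and ES cells were prepared with a stranded total RNA kit and embryos by amplified single-cell cDNA; the strand setting of the counting is not given in the sources used here. HTSeq's summary rows were left out of library sizes and tests. Counts were fitted in edgeR 4.0.16 (R 4.3.3) with TMM scaling, the filterByExpr filter and robust quasi-likelihood tests, two-sided, with Benjamini-Hochberg adjustment over all genes tested. Calls needed an adjusted p under 0.1 and, except for the interaction, an absolute log2 value over 0.5. Embryos and ES cells were described without tests. Likeness used log2(CPM + 0.5). Each fit was tested on simulated counts. Alternatives were DESeq2 1.42.0, its size factors, no filter, no fold threshold, a covariate, left-out libraries, hepatocyte scaling and a replicate block. Sequences came from GENCODE and RefSeq tables of GRCm38. Named genes were the 8 members, up to 4 called genes with the largest change from the glucuronidation list, Ugdh and Slc35d1, and up to 3 regulators. Ugt8a, Ugt1a6b, Ugt2a1, Ugt2a2, Alas2, Vil1 and Fabp2 were named after their values were seen. The members, lists and tests were chosen with earlier results of these data known. The labels do not say whether livers of a group came from separate litters, so p-values measure the spread between these samples.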

Additional observations from a re-analysis of the deposited data

Results flagged for a closer look

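For 6 members the difference between males and females itself differed between fetal and adult liver in the interaction test of edgeR over 48 livers. Over all genes tested 33.7% were called in that test. The change in log2 male/female from fetal to adult liver was 1.28 for Ugt2b1, 0.91 for Ugt2b35, 0.45 for Ugt2b5, 0.35 for Ugt2b36, 0.25 for Ugt2b34 and 4.33 for Ugt2b38. The share of reads outside genes, which separated male from female fetal livers, moves with the fetal side of each value. Its part in them was not tested beyond the covariate fit, in which only Ugt2b1 and Ugt2b35 were called. Without female fetal liver 14 Ugt2b38 was not called.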

How the results depend on the processing

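In adult liver by sex, 4 members were called under every alternative that kept the fold threshold and 7 without it. Without the threshold 3400 of 10372 genes tested were called. In fetal liver by sex, 0 members were called under every alternative that kept the threshold and 1, Ugt2b34, without it. Without it 4807 of 12930 genes tested were called there, so the share among the members was no higher. In adult against fetal liver all 8 were called under every alternative run. Of 13026 genes tested there, 8742 were called in the main fit and 10254 with hepatocyte scaling. In the interaction 6 members were called, 8 in DESeq2 and 5 without female fetal liver 14 (an alternative chosen after seeing the data). With the share of reads outside genes as a covariate 2 were called. Over all genes the calls were 4384 of 13026 in the main fit and 4418 of 19519 in DESeq2. They were 4473 of 13005 without liver 14 and 989 of 13026 with the covariate. The members that lost their call kept values of about the same size. Ugt2b38 gave 4.38 without liver 14. With the covariate Ugt2b5, Ugt2b36, Ugt2b34 and Ugt2b38 gave 0.43, 0.29, 0.21 and 5.20, with wider SEs. With the replicate block, 8 members were called in adult against fetal liver and 6 in the interaction. Of 13026 genes tested, 8731 and 3884 were called in these 2 fits. The titles share numbers between fetal and adult livers of different animals, and the deviations of same-numbered livers from their group means had r between -0.0923 and 0.0448 over 24 pairs, 0 of them over 0.1, so the samples share only a number. No single member's called value changed direction under any alternative. Scaling to hepatocyte markers moved the median log2 adult/fetal over all genes from -0.05 to -0.95. Depth limits Ugt2b37 and Ugt2b38 most, with at most 2 reads per fetal library.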
